A study of Mus musculus with 25 samples.

Results

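The regions described here are H3K9me3 peaks that lie near vomeronasal and trace-amine receptor genes, in regenerating myofibers of the mouse. They were chosen as the rows of the 12 H3K9me3 peak lists that lie on chromosomes 1 to 19 and are assigned to a gene whose symbol starts with Vmn1r, Vmn2r or Taar. There were 1093 such peaks among the 17669 autosomal peaks of these lists, which is 6.19%, and among 55242 peaks of both marks in the series. Of these, 555 were assigned to Vmn1r genes, 538 to Vmn2r genes and 0 to Taar genes. A further 10 peaks near such genes on the X chromosome, and 0 on the Y chromosome, fell outside the choice.

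Vmn1r and Vmn2r genes encode the pheromone receptors of the vomeronasal organ, and Taar genes encode amine receptors of the main olfactory epithelium. They sit in tandem arrays of closely related genes and pseudogenes, and a sensory neuron expresses few of them, with the other copies kept silent. H3K9me3 (trimethylation of lysine 9 of histone H3) is a mark of heterochromatin found over repeats and over clustered gene families, receptor arrays included, in cells that do not use them.

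All mice carried a mito-Dendra2 reporter and the Pax7-Cre(ERT2) driver, so that tamoxifen turned on the fluorescent label in muscle stem cells, and later in the fibers they form, together with recombination of any targeted allele. Tamoxifen was given at 75 mg/kg on 5 days, 50 µL of 1.2% BaCl2 was injected into the tibialis anterior muscle 2 days later to injure it, and the labelled myofibers were collected 14 days after it (14 dpi). The 4 genotypes were wild-type (no targeted allele), mfn2-/- (loss of the mitochondrial fusion protein mitofusin 2), vhl-/- (loss of the protein that targets HIF1α for degradation) and HIF1dPA (expression of a HIF1α that escapes it), with 3 libraries each. Recombination happens only in Pax7-expressing cells and their progeny, so nuclei of other cells within the dissected tissue keep their unrecombined alleles. The labels do not give age, strain or sex. The study counts its ChIP-seq replicates as mice, while the labels tie no library to an animal.

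The lists held 780 to 2407 autosomal H3K9me3 peaks each, most in wild-type (2176 to 2407) and fewest in mfn2-/- (780 to 1306). They give no read totals, so depth is unknown and a missing peak means only that none was called. The part of the list on the X chromosome also moved with genotype, from 23.7% to 25.2% in wild-type and 11.2% to 13.5% in mfn2-/- down to 3.66% to 5.74% in vhl-/- and 4.05% to 4.79% in HIF1dPA. The shares given below are therefore of autosomal peaks, and the value with X and Y peaks counted is given beside the main difference. None of the 10 genes in a list of myofiber genes had a peak of either mark, and lists of silencing marks cannot show which cells were present.

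Peaks at the promoters of receptor genes show the kind of sequence concerned. RefSeq promoters, taken from 250 bases before to 50 after the start of a gene in the build GRCm38.p6 (the coordinates of mm10), were present for 206 Vmn1r, 116 Vmn2r and 11 Taar genes. An H3K9me3 peak of at least 1 library overlapped them in 13 Vmn1r genes (6.31%), 5 Vmn2r genes (4.31%) and 0 Taar genes, compared with 0.369% of all 25748 autosomal genes with a promoter. The promoters under the highest-scoring peaks, 3 of Vmn1r and 2 of Vmn2r genes, are printed 5′ to 3′ on the strand of the gene, with the bases inside the peak in capitals.

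Vmn1r158: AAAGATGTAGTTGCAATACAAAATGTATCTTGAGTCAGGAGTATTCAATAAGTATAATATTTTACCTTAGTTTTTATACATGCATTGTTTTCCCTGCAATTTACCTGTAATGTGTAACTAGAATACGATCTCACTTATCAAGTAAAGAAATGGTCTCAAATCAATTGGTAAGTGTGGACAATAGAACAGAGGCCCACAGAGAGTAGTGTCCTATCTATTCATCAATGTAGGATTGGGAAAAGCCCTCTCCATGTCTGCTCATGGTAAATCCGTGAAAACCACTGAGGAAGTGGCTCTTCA
Vmn1r121: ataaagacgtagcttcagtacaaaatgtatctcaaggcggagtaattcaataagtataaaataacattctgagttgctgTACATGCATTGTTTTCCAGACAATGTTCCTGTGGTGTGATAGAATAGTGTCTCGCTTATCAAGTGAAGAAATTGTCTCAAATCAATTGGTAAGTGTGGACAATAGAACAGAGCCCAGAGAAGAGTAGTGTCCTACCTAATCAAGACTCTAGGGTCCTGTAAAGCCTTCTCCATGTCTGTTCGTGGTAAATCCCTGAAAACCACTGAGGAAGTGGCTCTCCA
Vmn1r246: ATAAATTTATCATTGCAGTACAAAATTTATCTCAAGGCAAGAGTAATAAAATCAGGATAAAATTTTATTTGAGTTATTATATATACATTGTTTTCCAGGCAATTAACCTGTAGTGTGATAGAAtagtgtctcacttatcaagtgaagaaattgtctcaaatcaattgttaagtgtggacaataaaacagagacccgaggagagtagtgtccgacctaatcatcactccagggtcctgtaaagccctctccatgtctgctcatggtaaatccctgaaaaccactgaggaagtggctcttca
Vmn2r49: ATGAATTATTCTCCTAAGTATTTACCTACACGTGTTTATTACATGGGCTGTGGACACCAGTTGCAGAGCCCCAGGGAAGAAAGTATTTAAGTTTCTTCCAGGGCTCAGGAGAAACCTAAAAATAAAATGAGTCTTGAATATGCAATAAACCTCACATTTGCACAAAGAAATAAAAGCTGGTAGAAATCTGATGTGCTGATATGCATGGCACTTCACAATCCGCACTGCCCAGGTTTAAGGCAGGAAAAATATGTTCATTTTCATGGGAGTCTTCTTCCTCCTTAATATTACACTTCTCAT
Vmn2r129: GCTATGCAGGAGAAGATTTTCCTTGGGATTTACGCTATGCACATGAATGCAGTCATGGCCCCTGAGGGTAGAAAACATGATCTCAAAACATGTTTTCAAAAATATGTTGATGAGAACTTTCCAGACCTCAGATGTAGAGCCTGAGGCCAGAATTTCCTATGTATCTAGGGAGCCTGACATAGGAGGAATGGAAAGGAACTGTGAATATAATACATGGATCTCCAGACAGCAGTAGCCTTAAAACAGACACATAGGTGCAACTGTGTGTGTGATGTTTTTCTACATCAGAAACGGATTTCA

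The Vmn1r158 promoter (chr7:22790733-22791032, minus strand) lay whole within a peak of wild-type replicate 2, that of Vmn1r121 (chr7:21098464-21098763, minus strand) had 221 of its 300 bases in a peak of wild-type replicate 1, and that of Vmn1r246 (chr7:20576192-20576491, minus strand) had 123 in a peak of wild-type replicate 3. The Vmn2r49 promoter (chr7:9992090-9992389, minus strand) was covered whole in vhl-/- replicate 3, and that of Vmn2r129 (chr4:156330853-156331152, plus strand) in HIF1dPA replicate 3. Each was overlapped by a peak in 1 of 12 libraries. The Vmn1r promoters, all from one array, were 81.4% to 86.1% identical over their pairwise alignments, while the Vmn2r promoters were 52.1% identical to each other.

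By genotype, the 13 Vmn1r promoters comprised 11 overlapped by a peak in wild-type lists, 1 in HIF1dPA, 1 in vhl-/- and 0 in mfn2-/- lists. The 5 Vmn2r promoters comprised 4 overlapped in HIF1dPA lists, 1 in vhl-/- and 0 in mfn2-/- or wild-type lists. At Vmn2r35 and Vmn2r65, both in HIF1dPA replicate 2, the overlap was only 14 and 37 of 300 bases. Vmn1r and Vmn2r promoters are poor in G and C, with a median GC content of 36% and 38% against 53% for all genes. They hold a median of 1 CpG against 7. The letters TATAAA, searched on both strands, occurred in 42.2% of Vmn1r and 23.1% of Vmn2r promoters against 13.6% of all. TAATTA, which many homeodomain proteins bind, occurred in 7.28% and 17.1% against 5.27%, and in 0 of the 83 promoters of the largest Vmn1r array on chromosome 7.

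To ask whether the mark near receptor genes differed between genotypes, the peaks were counted in each library. Wild-type lists held 172, 212 and 201 peaks near receptor genes in replicates 1, 2 and 3. The mfn2-/- lists held 19, 16 and 26, the vhl-/- lists 44, 64 and 86, and the HIF1dPA lists 107, 86 and 60. Every wild-type list was above every mutant list, and every mfn2-/- list was below every other list.

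Because the lists differ in length, the share of each library's autosomal peaks was compared. It was 8.56% ± 0.577 for wild-type, then 5.87% ± 0.928 for HIF1dPA, 5.49% ± 1.17 for vhl-/- and 1.97% ± 0.0902 for mfn2-/- (SD over 3 libraries). The share differed among the 4 genotypes (exact permutation test over libraries, p = 0.000519, adjusted p = 0.00468 over 9 planned tests). The mean of the 9 mutant lists minus that of wild-type was -4.12 percentage points (exact two-sided permutation test, p = 0.00909, adjusted p = 0.0205), and the share was lower in 9 of 9. With X and Y peaks in the denominator it was -2.34 points (exact permutation test, p = 0.0682), while the test of 4 genotypes gave p = 0.00351. The number of peaks was 0.243-fold that of wild-type (ratio of geometric means with 0.5 added to each number; exact permutation test, p = 0.00909, adjusted p = 0.0205). Taken singly, the mutant genotypes differed from wild-type by -6.59 (mfn2-/-), -3.07 (vhl-/-) and -2.69 points (HIF1dPA). Their lists did not overlap the wild-type lists, which in a design of 3 against 3 gives the smallest possible p of 0.1 (exact permutation test). The vhl-/- and HIF1dPA shares differed by 0.378 points and overlapped (exact permutation test, p = 0.8).

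The same lists were read for Olfr and Zfp genes, the groups set against the receptor genes. Peaks near olfactory receptor (Olfr) genes, another clustered receptor family, numbered 24 to 30 in wild-type and 9 to 28 in mutant lists. Relative to them, peaks near vomeronasal receptor genes were 0.434-fold in mutant compared with wild-type lists (exact permutation test, p = 0.0136, adjusted p = 0.0205). Relative to peaks near Zfp genes, the zinc finger genes whose clusters carry H3K9me3 in many tissues, they were 0.377-fold (exact permutation test, p = 0.0136, adjusted p = 0.0205). Without wild-type replicate 2, both tests gave p = 0.0545, and without wild-type replicate 3 the tests against Olfr and Zfp peaks gave p = 0.0727 and p = 0.0545 (exact permutation tests, 55 arrangements). At a score of at least 100 the log2 ratios were -0.72 and -0.73 (exact permutation tests, p = 0.0864 and p = 0.0636), and without the largest Vmn1r array of chromosome 7, described further on, they were -0.087 and -0.29 (exact permutation tests, p = 0.845 and p = 0.527).

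The receptor families moved differently. Vmn1r receptors carry a short extracellular end and are expressed with the G protein Gαi2, and their peaks numbered 119, 148 and 135 in wild-type lists. HIF1dPA lists held 31, 25 and 13, vhl-/- lists 13, 19 and 23, and mfn2-/- lists 4, 11 and 14. Their share was 5.88% ± 0.363 for wild-type, then 1.57% ± 0.436 for HIF1dPA, 1.56% ± 0.273 for vhl-/- and 0.959% ± 0.517 for mfn2-/- (SD over 3 libraries). The mutant lists differed from wild-type by -4.52 points (exact two-sided permutation test, p = 0.00455, the smallest this design can give, adjusted p = 0.0205), with 9 of 9 lower.

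Vmn2r receptors have a large extracellular domain and are expressed with Gαo, and their peaks numbered 53, 64 and 66 in wild-type lists. HIF1dPA lists held 76, 61 and 47, vhl-/- lists 31, 45 and 63, and mfn2-/- lists 15, 5 and 12. Their share was 2.68% ± 0.257 for wild-type, then 4.30% ± 0.565 for HIF1dPA, 3.93% ± 0.906 for vhl-/- and 1.01% ± 0.427 for mfn2-/- (SD over 3 libraries). All mfn2-/- lists were below, and all vhl-/- and HIF1dPA lists above, the wild-type lists, by as little as 2.98% in vhl-/- replicate 1 against 2.95% in wild-type replicate 3. Each of these contrasts gave p = 0.1, the smallest possible (exact permutation test), and the mutants together differed from wild-type by 0.399 points (exact permutation test, p = 0.691, adjusted p = 0.691). With only the 780 strongest peaks per library, mfn2-/- replicate 1 (1.54%) lay above wild-type replicates 1 and 2 (1.41% each). The ratio of Vmn1r to Vmn2r peaks was 0.233-fold in mutant compared with wild-type lists (exact permutation test, p = 0.00909), a test added after the data were seen. At a score of at least 100 its log2 value was -0.53 (exact permutation test, p = 0.355).

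**Figure D1:**
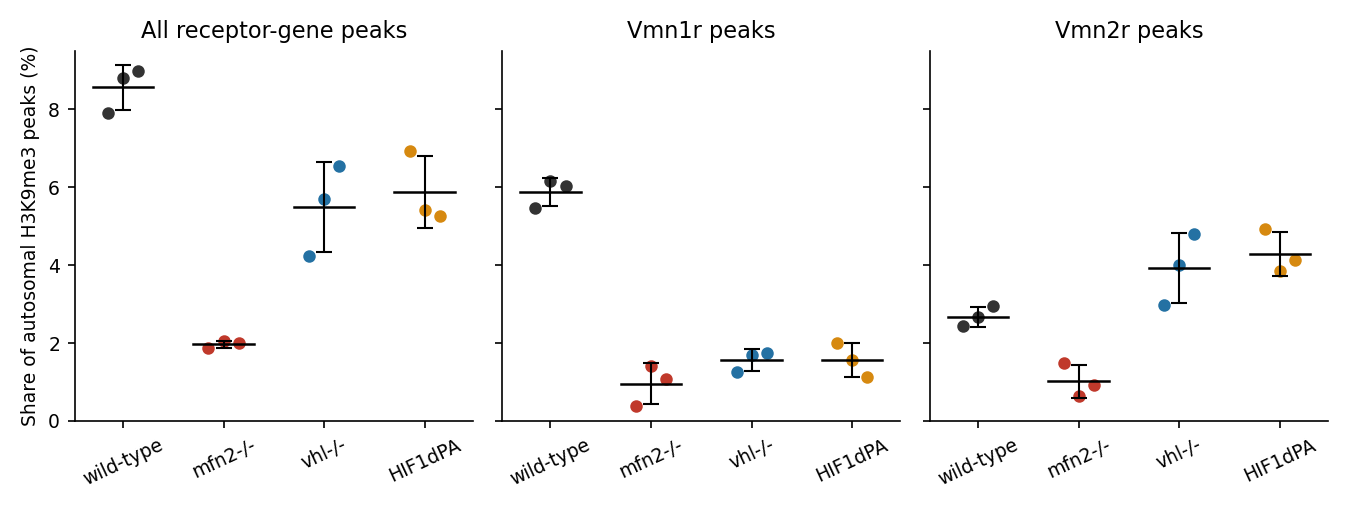
Share of each library's autosomal H3K9me3 peaks (percent, y axis) assigned to Vmn1r or Vmn2r genes together and to each family, by genotype (x axis). Points are libraries, lines the mean and error bars the SD of 3. Vmn1r shares of all mutant lists lie between 0.394% and 2.01%, below the wild-type range of 5.47% to 6.15%, whereas Vmn2r shares of vhl-/- and HIF1dPA lists lie above the wild-type ones.

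Chromosome 7 held 777 of the 1093 peaks, followed by chromosome 17 with 162, chromosome 18 with 49, chromosome 4 with 43, chromosome 6 with 25 and chromosome 5 with 24. Of the autosomal receptor genes in RefSeq, 170 of 366 Vmn1r and 105 of 250 Vmn2r genes lie on chromosome 7. Chromosome 7 peaks made up 6.78% ± 0.222 of wild-type lists, then 3.83% ± 0.358 for HIF1dPA, 3.56% ± 0.772 for vhl-/- and 0.737% ± 0.297 for mfn2-/- (SD over 3 libraries, exact permutation test of 4 genotypes, p = 0.000455, adjusted p = 0.00273 over 6 chromosomes). The other chromosomes tested did not pass after adjustment. On chromosome 17 the share was 1.05% ± 0.287 for wild-type, then 1.06% ± 0.316 for HIF1dPA, 0.985% ± 0.274 for vhl-/- and 0.318% ± 0.216 for mfn2-/- (exact permutation test, p = 0.0338, adjusted p = 0.101). On chromosomes 4, 5, 6 and 18 adjusted p-values were 0.30 to 0.914 (exact permutation tests).

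Receptor genes no more than 1 Mb apart were joined into 30 arrays, of which 18 held a peak assigned to a receptor gene. The arrays described in the next paragraphs were singled out after their values were seen, and their values are given without a test. The largest Vmn1r array, chr7:20101158-24055691, spans 3.95 Mb and 99 Vmn1r genes, 13 of them pseudogenes. Its peaks near Vmn1r genes numbered 99, 116 and 116 in wild-type lists. HIF1dPA lists held 8, 6 and 3, vhl-/- lists 3, 2 and 4, and mfn2-/- lists 0, 2 and 1. These were 331 of the 402 wild-type Vmn1r peaks (82.3%) and 29 of the mutant ones.

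The count did not depend on the gene assignment. All peaks with a midpoint in the array, whatever their gene, numbered 111, 126 and 138 in wild-type lists, or 5.50% ± 0.579 of the autosomal list (SD, n = 3), and 0 to 9 in mutant lists, or 0.408% ± 0.162 for HIF1dPA, 0.312% ± 0.0599 for vhl-/- and 0.137% ± 0.129 for mfn2-/-. Over the genome, 3.01% of 1961 bins of 1 Mb had more peaks in every wild-type list than in any mutant list, and 0 had fewer in every wild-type list. All 5 bins of this array were among the former, the last with 7 wild-type and 4 mutant peaks in all. These numbers do not allow for list length, and every wild-type list was longer than every mutant list. Among 39 bins with at least 30 wild-type peaks, the first 3 bins of the array ranked 1, 2 and 3 by the ratio of wild-type to mutant mean counts. Bins entered this ranking by their wild-type count, and the array was singled out for the same contrast, so the ranks are description only. The wild-type peaks ran through the first 3.5 Mb of the array, with 27 in the first 500 kb of every wild-type list.

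**Figure D2:**
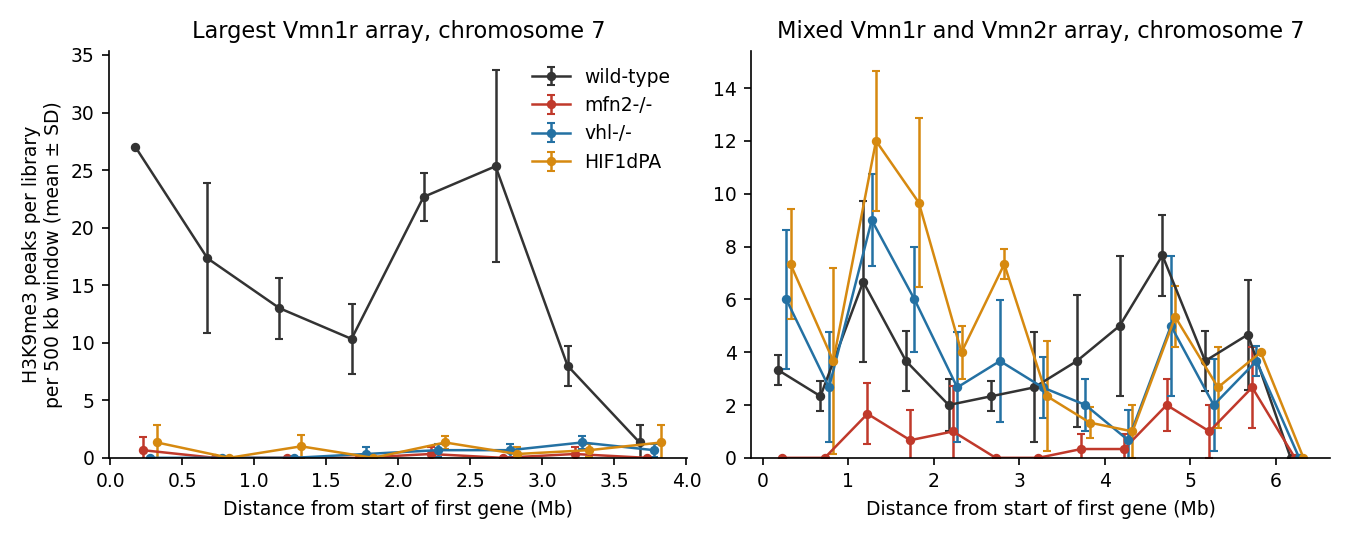
H3K9me3 peaks per library in windows of 500 kb (y axis, mean and SD of 3 libraries per genotype) against distance in Mb from the start of the first receptor gene (x axis), for the largest Vmn1r array and the mixed array on chromosome 7; points are offset sideways for legibility and the y scales differ. In the first array wild-type lists hold up to 32 peaks per window and mutant lists at most 3. In the first 3 Mb of the mixed array vhl-/- and HIF1dPA means lie above wild-type, and from 3 Mb on neither does.

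Although dense in every wild-type list, these peaks rarely coincided. Of the 375 wild-type peaks in the array, 16.3% overlapped a peak of another wild-type library by at least 1 bp. For the 143 wild-type peaks of the mixed array on chromosome 7 it was 13.3%, so low overlap was not particular to this array. The wild-type peaks of the largest Vmn1r array were narrow, with medians of 585, 586 and 588 bp, none wider than 1314 bp. Their median scores were 64.7, 60.9 and 63.2 (10 times -log10 of a peak's p-value, listed from 50 upward). All autosomal peaks of the wild-type lists were similar, with median widths of 596, 600 and 598 bp. Their median scores were 62.6, 62.2 and 61.9. Wild-type lists had peaks near 81 of the 99 genes, and mutant lists near 23.

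Outside this array, Vmn1r peaks made up 1.03% ± 0.26 of wild-type lists, then 1.31% ± 0.301 for vhl-/-, 1.19% ± 0.308 for HIF1dPA and 0.848% ± 0.401 for mfn2-/-, and the ranges of the libraries overlapped. With the array left out, the difference of the mutants from wild-type in the share of all receptor-gene peaks was 0.278 points, in the opposite direction (exact permutation test, p = 0.823). That mean joins -2.07 points for mfn2-/- with 1.32 for vhl-/- and 1.58 for HIF1dPA, and the 4 genotypes still differed (exact permutation test, p = 0.00325). With chromosome 7 left out the difference of all mutants was -0.233 points (exact permutation test, p = 0.591). Both removals were chosen with the values known.

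The mixed array at chr7:7153726-13244458 holds 47 Vmn1r and 47 Vmn2r genes over 6.09 Mb. All its peaks, whatever their gene, totalled 143 in wild-type, 182 in HIF1dPA, 138 in vhl-/- and 29 in mfn2-/- lists. On average they were 2.10%, 4.26%, 3.95% and 0.885% of the autosomal list. Those near Vmn2r genes showed another order than the peaks of the largest Vmn1r array. Its Vmn2r peaks numbered 13, 16 and 14 in wild-type lists. They numbered 41, 35 and 27 in HIF1dPA, 17, 22 and 31 in vhl-/- and 1, 1 and 5 in mfn2-/- lists. They made up 0.629% ± 0.0338 of wild-type lists, then 2.41% ± 0.231 for HIF1dPA, 1.98% ± 0.361 for vhl-/- and 0.203% ± 0.156 for mfn2-/- (SD over 3 libraries), and no genotype overlapped wild-type. This array took 23.5% of the Vmn2r peaks of wild-type lists, but 56.0% for HIF1dPA and 50.4% for vhl-/-. Vmn2r peaks elsewhere made up 2.05% ± 0.247 of wild-type lists, then 1.94% ± 0.551 for vhl-/- and 1.89% ± 0.337 for HIF1dPA, with overlapping ranges, and 0.81% ± 0.495 for mfn2-/-.

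The remaining arrays with at least 20 peaks each held fewer. At chr17:17703941-21323764, with 26 Vmn1r and 36 Vmn2r genes, the lists held 14, 22 and 24 peaks for wild-type, 21, 14 and 7 for HIF1dPA, 5, 9 and 15 for vhl-/- and 4, 3 and 1 for mfn2-/-. Only the mfn2-/- lists lay apart from wild-type. The Vmn2r array at chr7:84810427-87037968 (41 genes) had 8, 9 and 12 peaks in wild-type and 0 to 6 in mutant lists, and that at chr7:41399732-43048106 (15 genes) had 6, 8 and 7 in wild-type, 0 in each mfn2-/- list and 2 to 5 in the others. In both, each wild-type list held more such peaks than each mutant list. The array at chr4:145701675-147521814 had 5, 3 and 3 in wild-type and 0 to 4 in mutant lists. That at chr5:108797193-109731447 had 1, 4 and 0 in wild-type and 0 to 4 in mutant lists. At chr18:3026901-3123412 wild-type lists held 1, 3 and 4 and mutant lists 0 to 6, with 6 in mfn2-/- replicate 3. In each of these the ranges of wild-type and mutant lists overlapped. The values of this paragraph are numbers that do not allow for list length. Wild-type lists held 2176 to 2407 autosomal peaks and mutant lists 780 to 1588. Shares were not compared for these arrays.

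Other arrays had almost no peaks assigned to their receptor genes. The chromosome 13 array (chr13:22057168-23269501), with 75 Vmn1r genes, had 6 peaks in 12 libraries and 0 in wild-type, and the chromosome 6 array at chr6:56923914-58504695, with 44 Vmn1r genes, had 3. The 18 Vmn2r genes of chromosome 3 and the 16 Taar genes of chromosome 10 had 0.

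**Figure D3:**
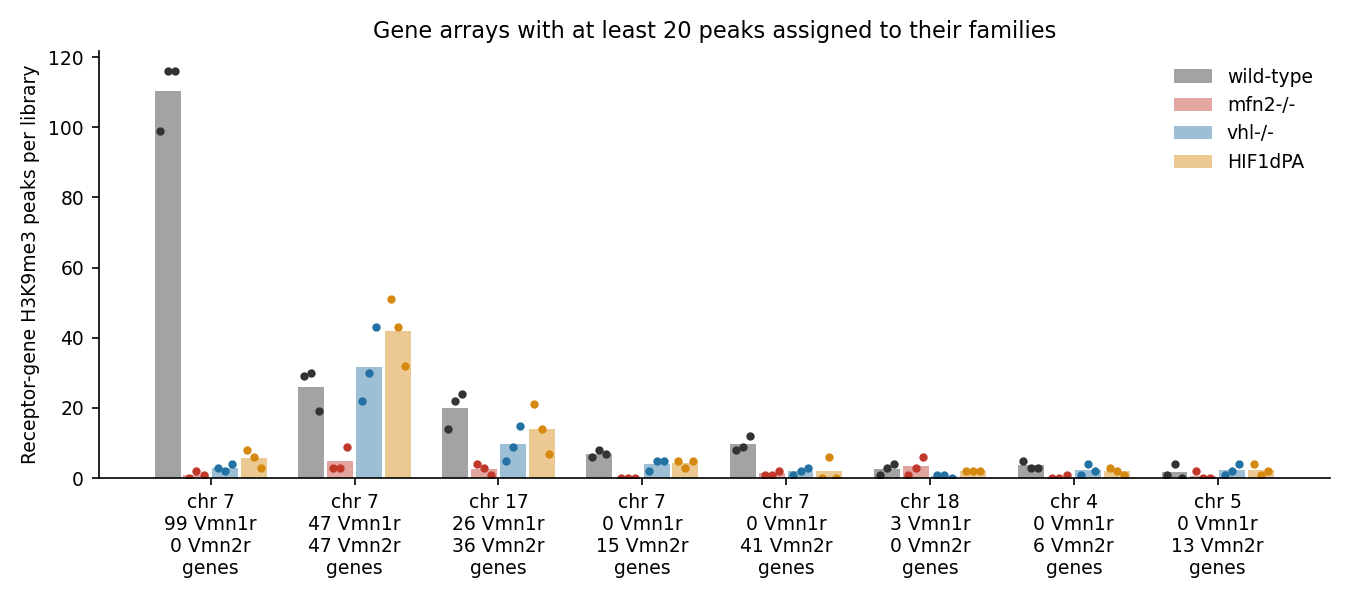
H3K9me3 peaks near receptor genes per library (y axis) in the 8 arrays with at least 20 such peaks (x axis, with chromosome and numbers of genes). Bars are means of 3 libraries and points the libraries. The largest Vmn1r array holds 99 to 116 peaks in wild-type and at most 8 in mutant lists, and the mixed array is highest in HIF1dPA lists (32 to 51).

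Most receptor-gene peaks were distal. Of 1093, 796 (72.8%) were classed by the authors as distal intergenic, 170 (15.6%) as promoter (within 3 kb of a start), 97 (8.87%) as intron, 28 (2.56%) as exon and 2 as 3′ UTR. Of the promoter peaks, 71 were within 1 kb. The median distance to the span of the assigned gene in RefSeq was 7257 bp, 186 peaks overlapped the span and 1086 lay within 50 kb. The distal share was 73.3% to 81.6% for wild-type, 61.6% to 66.7% for HIF1dPA, 63.6% to 75.6% for vhl-/- and 78.9% to 87.5% for mfn2-/-. The mutants together differed from wild-type by -4.44 points (exact permutation test, p = 0.455, adjusted p = 0.511). Among all autosomal peaks the distal share was 53.6% to 65.1%. Intron peaks made up 2.83% to 6.40% of the receptor-gene peaks of wild-type lists, 12.1% to 20.5% of those of vhl-/- and HIF1dPA lists and 3.85% to 12.5% of those of mfn2-/- lists. Among all autosomal peaks the intron share was 18.6% to 19.8% in wild-type, 14.3% to 16.5% in vhl-/- and HIF1dPA and 22.7% to 24.9% in mfn2-/- lists. The vhl-/- and HIF1dPA values thus lay near the share of all peaks, and the wild-type values below it.

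**Figure D4:**
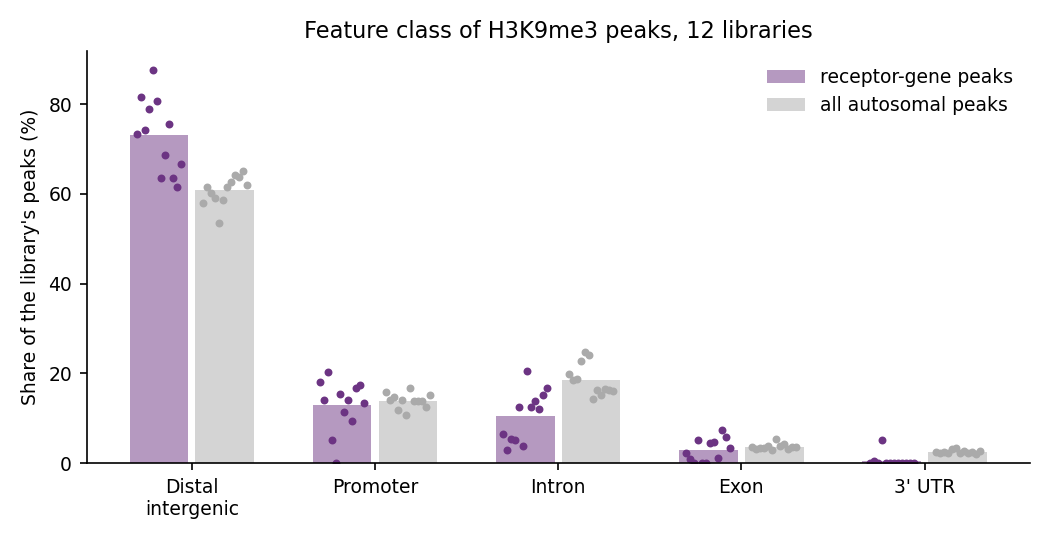
Share of a library's H3K9me3 peaks (percent, y axis) in each feature class (x axis), for receptor-gene peaks and for all autosomal peaks. Bars are means over 12 libraries and points the libraries. Receptor-gene peaks are distal in 61.6% to 87.5% of cases.

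Most peaks were narrow. The median was 590 bp, with a range of 325 to 15185 bp, and 79 peaks were wider than 1000 bp. Library medians were 584 to 590 bp in wild-type and 588 to 632 bp in mutant lists, a 1.03-fold difference (exact permutation test on log2 medians, p = 0.105, adjusted p = 0.134). All 18 peaks wider than 3000 bp were assigned to 2 pseudogenes, Vmn1r-ps151 with 10 and Vmn2r-ps20 with 8. Peaks with a score of at least 100 numbered 67. Of these 20 were on chromosome 4, 29 on chromosome 7, 17 on chromosome 18 and 16 in the largest Vmn1r array.

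Peaks recurred at few places. Merging the peaks of 12 libraries gave 917 regions near receptor genes, of which 90.3% were found in 1 library, compared with 84.3% of all 11350 autosomal regions, and 6 were found in at least 6 libraries. The regions in all 12 were at Vmn1r-ps2 (chr4:3089228-3091912, scores of 60.7 to 330.03) and at Vmn1r-ps60 (chr7:12009978-12013733, scores of 53.2 to 315). A region at Vmn2r-ps20 (chr4:147505762-147536314), which also took in peaks assigned to Gm13141, Gm15951 and Zfp982, was found in 11 libraries. Regions at Vmn1r-ps151 (chr18:3003792-3011645) and Vmn1r-ps152 (chr18:3059754-3061720) were found in 10 and 9, and one at Vmn2r-ps15 (chr4:145775417-145780855) in 7. All 6 held peaks assigned to pseudogenes, which do not encode a full receptor. Genes with -ps in their symbol took 33.5% of all receptor-gene peaks, and 22.4% to 27.3% in wild-type compared with 34.6% to 50.0% in mutant lists. For comparison, pseudogenes make up 37.4% of the Vmn1r and 51.2% of the Vmn2r genes in RefSeq. The largest Vmn1r array, with 13 pseudogenes among 99 genes, held 331 of the 585 wild-type peaks.

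The strongest receptor-gene peak of each genotype lay at such a pseudogene. In wild-type it was a peak of 4476 bp at Vmn1r-ps151 (ENSMUSG00000093774, chr18:3007100-3011575) with a score of 779, and in HIF1dPA one at the same place (chr18:3007180-3011645) with a score of 430. In vhl-/- it was a peak of 8984 bp at Vmn2r-ps20 (ENSMUSG00000096440, chr4:147521285-147530268, promoter class) with a score of 519. In mfn2-/- it was a peak of 2111 bp at Vmn1r-ps2 (ENSMUSG00000081279, chr4:3089427-3091537) with a score of 178.

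Few single regions separated genotypes completely. Regions with a peak in all 3 wild-type lists and in no mutant list numbered 3 near receptor genes, of 917, whereas 0.344% of all 11350 regions did. They were at Vmn1r159 (chr7:22833174-22835797), Vmn1r256 (chr7:22566613-22568045) and Vmn1r112 (chr7:20760494-20762276), all in the largest Vmn1r array. Against mfn2-/- alone there was a 4th, at Vmn1r-ps151 (chr18:3004087-3006768), giving 4 of 570 regions near receptor genes against 2.01% of all regions. Against vhl-/- and HIF1dPA alone the same 3 regions were found, with 1.13% and 1.10% of all regions so called. In the reverse direction no receptor-gene region had a peak in all lists of a mutant genotype and none in wild-type, where 0.232%, 0.667% and 0.762% of all regions did for mfn2-/-, vhl-/- and HIF1dPA. No receptor-gene region had a peak in all 9 mutant lists and none in wild-type, where 0.0176% of all regions did. Between mutants, 1 region at Vmn1r-ps151 was found in every vhl-/- and no mfn2-/- list, where 1.63% of all regions were. The other comparisons between mutants gave 0 receptor-gene regions. Of all regions, those in every HIF1dPA and no mfn2-/- list were 1.63%, those in every mfn2-/- but no vhl-/- list 0.754%, those in every mfn2-/- but no HIF1dPA list 0.573%, and those separating vhl-/- and HIF1dPA 0.0371% and 0.0742%.

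Counted by gene rather than by region, the peaks fell to 271 genes, 141 Vmn1r and 130 Vmn2r, all of which matched a RefSeq symbol. Of these, 22 had a peak in every wild-type list and in no mutant list, which is 8.12%, compared with 1.17% of 4523 genes with an autosomal peak. All 22 were Vmn1r genes of the largest array on chromosome 7, so this count restates the values of that array and is not a separate result. Vmn1r159 (ENSMUSG00000095931, chr7:22842688-22843605) had 13 wild-type peaks with scores up to 109, Vmn1r119 had 12, Vmn1r246 (ENSMUSG00000095837) and Vmn1r155 had 11 each, and Vmn1r158 had 9 with scores up to 152. Reads from near-identical copies can be placed at either one, so the assignment to a single gene of an array is uncertain.

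Ranked by the number of libraries with a peak, the leading Vmn1r genes were the pseudogenes Vmn1r-ps2, Vmn1r-ps60 and Vmn1r-ps151, each in 12 of 12, followed by Vmn1r-ps152 in 9. Vmn1r238, a receptor gene beside Vmn1r-ps151 and Vmn1r-ps152 on chromosome 18, had peaks in 7 libraries, with 7 peaks in wild-type, 1 in HIF1dPA, 1 in vhl-/- and 4 in mfn2-/-. Vmn1r73 of the mixed array had peaks in 6, of which 1 was wild-type and 0 mfn2-/-. Vmn1r160, Vmn1r243, Vmn1r103 and Vmn1r256, genes of the largest array, had peaks in 5, 5, 5 and 4 libraries, and in each case in all 3 wild-type lists. Vmn1r160 had 18 wild-type peaks and 2 in mutants, both in vhl-/-.

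The leading Vmn2r genes were Vmn2r-ps20, Vmn2r-ps15, Vmn2r-ps49 and Vmn2r42, each in 8 libraries. Of these, Vmn2r42 and Vmn2r-ps49 lie in the mixed array and had 2 and 1 mfn2-/- peaks. Of the other 6, Vmn2r39, Vmn2r-ps42, Vmn2r43, Vmn2r49 and Vmn2r-ps46 lie in the mixed array, and none of these 5 had a peak in an mfn2-/- list. Vmn2r39 had 1 wild-type peak, with 4 for vhl-/- and 8 for HIF1dPA, and was found in all 3 libraries of both mutants. Vmn2r43 had 1, 5 and 7, Vmn2r-ps42 had 2, 4 and 9, and Vmn2r-ps46 had 2, 7 and 8. Vmn2r69, in the Vmn2r array at chr7:84810427-87037968, went the other way, with 7 wild-type peaks, 1 for HIF1dPA, 2 for vhl-/- and 3 for mfn2-/-.

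Related gene groups were read in the same lists. Wild-type lists held 38.6% of all autosomal peaks, 53.5% of receptor-gene peaks, 72.4% of Vmn1r peaks and 34.0% of Vmn2r peaks. They held 35.7% of 227 peaks near Olfr genes, 35.4% of 82 near Esp genes (exocrine gland peptides, ligands of Vmn2r receptors), 43.8% of 32 near Tas2r genes (bitter taste receptors) and 42.1% of 19 near Mrgpr genes (receptors of skin sensory neurons). For Mup genes, whose urinary proteins are ligands of vomeronasal neurons, they held 29 of 41 peaks (70.7%), with 4 in each mutant genotype. Of 16 genes for signalling and fate in chemosensory neurons, 4 had an H3K9me3 peak, with 5 peaks in all, namely Ano1, Ano2, Bcl11b and Gnal. No peak was assigned to H2-M genes, whose products accompany Vmn2r receptors, and 3 were assigned to Fpr genes, another vomeronasal receptor family.

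H3K27me3, the mark of Polycomb silencing, was nearly absent near receptor genes. Its 12 lists held 33 such peaks among 30979 on autosomes (0.107%), 17 near Vmn1r, 14 near Vmn2r and 2 near Taar genes, and 0 overlapped an H3K9me3 peak near a receptor gene. Only 1 lay in the largest Vmn1r array. The Taar peaks were at Taar7b (chr10:24000888-24001523, promoter class, score of 57.4) in wild-type replicate 3 and near Taar8a (chr10:24079800-24080389, score of 59.9) in vhl-/- replicate 3. Of the 16 genes for signalling and fate in chemosensory neurons, 9 had an assigned H3K27me3 peak, with 194 peaks in all. Most were at the transcription factor genes Lhx2 (66), Meis2 (62), Tfap2e (23) and Bcl11b (16) and at Gnal (22). Ebf1 had 2, and Ano1, Ano2 and Gng8 had 1 each. The share of all genes with such a peak was not computed.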

How the data were processed

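ChIP-seq of both marks covered 3 libraries per genotype. The submitters' processing notes name BWA 0.7.5, MACS, deepTools 3.5.0 and mm10, without roles. The authors deposited 1 peak list per library, called per library, with coordinates, a score (10 times the negative log10 of the peak's p-value, 50 or more), an assigned gene and a feature class. Handling of multiply mapped reads, duplicates and input is not given in the sources used here. A wild-type input library was not used here. Depth is unknown.

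Peaks were selected by gene symbol. Genotypes were compared by exact permutation tests over libraries (369600, 220 or 20 arrangements), two-sided except for the test of 4 genotypes, with Benjamini-Hochberg adjustment over 9 planned tests and over 6 chromosomes with at least 24 peaks. Peaks were merged where they overlapped by 1 bp. Genes were named by a fixed rule (up to 10 per family with a peak in the most libraries, ties by mean score percentile within a list; up to 5 separated regions per comparison; the strongest peak of each genotype; the regions in the most libraries), other genes after their values were seen. The members, gene lists and tests were chosen with earlier results of these data known. Alternatives were a score of at least 100, the 780 strongest peaks per library, peaks joined within 1000 bp, base pairs in place of numbers, X and Y peaks in the denominator, permutation within replicate numbers, and dropping libraries one at a time. Promoter sequences and gene spans are from RefSeq (GRCm38.p6), aligned with biopython 1.88. Scripts were tested on simulated data. Analyses ran in Python 3.11.15 with pandas 2.3.3 and numpy 2.4.6, and plots in matplotlib 3.10.9.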

Additional observations from a re-analysis of the deposited data

Results flagged for a closer look

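The Vmn2r share of the full autosomal H3K9me3 list lay below wild-type in all mfn2-/- lists and above it in all vhl-/- and HIF1dPA lists. With the 780 strongest peaks per library, mfn2-/- replicate 1 (1.54%) was above wild-type replicates 1 and 2 (1.41% each). All vhl-/- and HIF1dPA lists (2.31% to 4.74%) remained above wild-type (1.41% to 2.18%). In number, vhl-/- lists held 31, 45 and 63 Vmn2r peaks against 53, 64 and 66 in wild-type. The mean of the vhl-/- and HIF1dPA lists exceeded that of the mfn2-/- lists by 3.10 percentage points (exact permutation test of 3 against 6 libraries, 84 arrangements, p = 0.0119, the smallest this design can give), a difference chosen after the data were seen. No wild-type library enters this test.

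H3K27me3 peaks near receptor genes, which enter none of the comparisons of H3K9me3, made up on average 0.157% of autosomal peaks in vhl-/- lists (0.124% to 0.181%) against 0.0769% in wild-type (0.0266% to 0.117%). The mean was 0.202% in HIF1dPA lists (0% to 0.406%), from 0, 2 and 1 peaks in short lists of 474 to 496 autosomal peaks. It was 0.0543% in mfn2-/- lists, with 2, 1 and 1 peaks. The vhl-/- lists held 7, 5 and 6 such peaks and the wild-type lists 1, 4 and 3. The difference was not tested.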

How the results depend on the processing

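Of the alternatives other than leaving out a library, 113 values kept their direction and side of the threshold, 13 lost the threshold, 12 turned and 11 counts moved. At a score of at least 100 the Vmn2r difference was -0.233 points, and the log2 ratios of mutants to wild-type were -0.72 against Olfr peaks, -0.73 against Zfp peaks and -0.53 for Vmn1r against Vmn2r (p = 0.0864, 0.0636 and 0.355, exact permutation tests). With the 780 strongest peaks per library the log2 width difference was -0.082 and the chromosome 17 range of genotype means was 0.598 points (p = 0.271, exact permutation test). With X and Y peaks in the denominator the difference from wild-type was -2.34 points (p = 0.0682, exact permutation test).

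In removals chosen after the values were known, without chromosome 7 the range of the genotype means was 1.01 points, the differences from wild-type were -0.233 (all), 0.0395 (Vmn1r) and -0.272 (Vmn2r) points for the mutants together, 0.00715 for vhl-/- and 0.154 for HIF1dPA, and the log2 ratios were -0.24 (Olfr), -0.42 (Zfp) and 0.64 (Vmn1r to Vmn2r). Without the largest Vmn1r array, the differences were 0.278 (all), 0.0262 (Vmn1r), 1.32 (vhl-/-), 1.58 (HIF1dPA) and, in the same direction as before, -2.07 (mfn2-/-) points, the range of the genotype means was 3.64 points (p = 0.00325, exact permutation test), and the log2 values -0.92 (number), -0.087 (Olfr), -0.29 (Zfp) and 0.15 (Vmn1r to Vmn2r).

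Regions found in all wild-type lists and none of vhl-/-, HIF1dPA or all mutants rose from 3 to 5 when peaks within 1000 bp were joined and fell to 0 at a score of at least 100, where 1 remained against mfn2-/-. Joining gave 2 regions for HIF1dPA but not wild-type, 2 for vhl-/- but not mfn2-/- and 1 for HIF1dPA but not mfn2-/-. At a score of at least 100 the count for vhl-/- but not mfn2-/- was 0.

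Leaving out 1 library at a time gave -1.37 to -1.07 for the log2 ratio to Olfr peaks and -1.51 to -1.27 for that to Zfp peaks, with p up to 0.0727 and 0.0545 (exact permutation tests). Same-numbered libraries did not deviate together (correlations of -0.0424 to 0.0367). With 84.3% of autosomal regions found in 1 library, such correlations cannot show whether the numbers pair libraries. The labels do not say. With the replicate number as a block, the test of 4 genotypes gave p = 0.00694 and that of mutants against wild-type p = 0.0313 (exact permutation tests), and chromosome 17, at 0.743 points, p = 0.0816. The block changed no other call. The causes of these changes were not tested. The planned limit of 50 kb to a start site could not be run, since the lists give no distances, and the RefSeq span of the gene replaced it without changing a call. The 3 libraries per genotype and the unknown depth limit what small differences can be seen.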
